A study of Vitis x labruscana x Vitis vinifera with 36 samples.

Results

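Gene expression in the skin and the flesh of ripening 'Shine Muscat' grape berries was compared at stage 4, the latest of the 3 stages in the count table. 'Shine Muscat' is a table grape bred from Vitis labruscana Bailey and Vitis vinifera. The comparison used 12 of the 36 RNA sequencing libraries in the count table, chosen by their labels alone: 6 of skin and 6 of flesh. Within each tissue, 3 libraries came from seedless berries and 3 from seeded berries. The title of the study describes the seedless berries as treated ones. The sources used here do not give the agent, its dose, the calendar day of stage 4 or the number of berries and vines in a sample. Seedless or seeded was kept as a block, so each fold change compares skin with flesh inside the same kind of berry.

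Berry skin is a thin layer of epidermis and hypodermis under a waxy cuticle. It is where grapes concentrate phenolic compounds and much of their aroma, and it is the surface that meets pathogens and drying air. Flesh is made of large, vacuole-filled cells that store water, sugars and organic acids as the berry ripens. The files give gene identifiers but no gene names, so the genes below carry their identifiers only, with no role attached, and the tissue labels could not be checked against known marker genes. In the identifiers, the digits before the letter s give the chromosome by the naming convention, with 00 for unplaced sequence.

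Total counts ran from 2225500 to 6373301 reads per library. They were 3878606 to 5121805 in seedless skin, 2225500 to 5355703 in seeded skin, 3457702 to 6373301 in seedless flesh and 2764834 to 4261363 in seeded flesh. On principal components of the log2 values, the first axis (62.7% of the variance) placed skin libraries from 49.4 to 60.7 and flesh libraries from -59.5 to -51.8. The second axis (8.9%) separated seedless from seeded berries. Correlations between libraries were 0.958 to 0.981 within a group of replicates, 0.947 to 0.968 between seedless and seeded berries of the same tissue, and 0.861 to 0.898 between skin and flesh. Thinned to the same depth, seedless skin had reads for 16521 to 16848 genes and seedless flesh for 16189 to 16460. For seeded berries the numbers were 16294 to 16700 in skin and 15996 to 16083 in flesh. Skin had more detected genes than flesh in every library of the same treatment, although the ranges overlapped when the treatments were pooled.

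Skin and flesh differed in a large share of the transcriptome. Of 13783 genes tested with the edgeR quasi-likelihood test, 6157 (44.7%) passed a Benjamini-Hochberg adjusted p of 0.05. Skin was higher for 3294 genes (23.9%) and flesh for 2863 (20.8%). In bulk tissue, fewer cells of a type and less RNA per cell cannot be told apart. The labels do not say that replicates came from separate vines, and the p-values rest on the scatter among the libraries, part of which may be technical.

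The numbers of genes in the 2 directions were close, but the sizes were not. Genes called higher in skin had a median log2 fold change of 1.01, and those called higher in flesh had a median of -0.51. At 2-fold or more, 1657 genes (12%) were higher in skin and 581 (4.22%) in flesh, so that skin held 74.0% of them. At 4-fold or more the numbers were 847 and 163. At 8-fold or more they were 481 and 24, and at 16-fold or more 263 and 4. Levels are given in CPM, the reads of a gene per 1000000 reads of its library after TMM scaling. The same lean towards skin was present where the 12 libraries averaged 5 CPM or more: there, 263 genes were at least 8-fold higher in skin and 10 in flesh. The log2 fold change over all genes tested had its 1st percentile at -2.08 and its 99th at 4.79, around a median of -0.01.

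**Figure D1:**
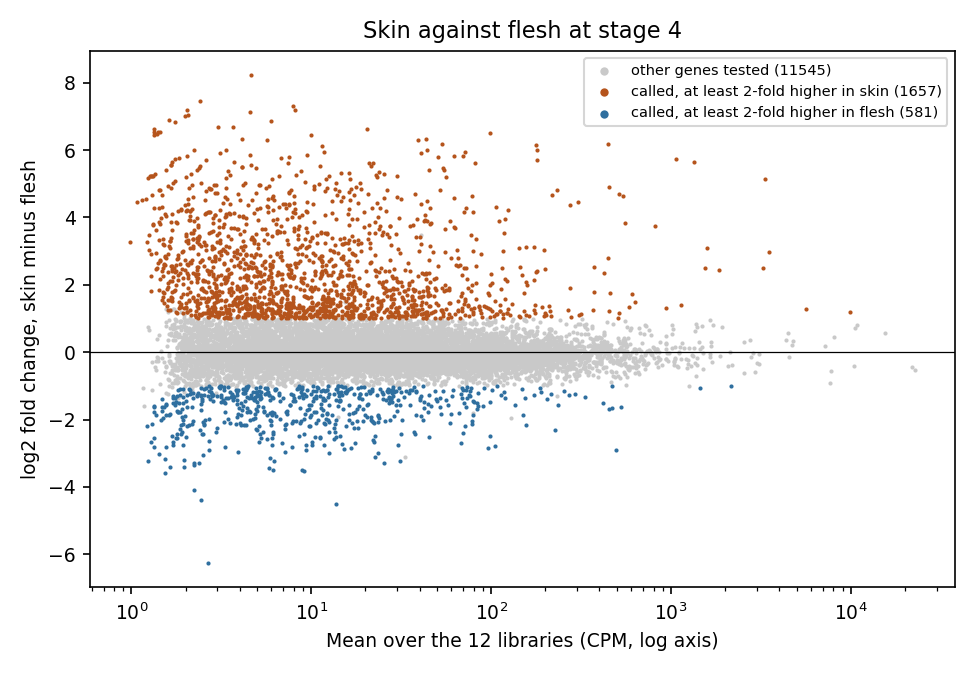
Each point is one of the 13783 genes tested, with its mean over the 12 stage 4 libraries in CPM on the horizontal log axis and its log2 fold change, skin minus flesh, on the vertical axis. Orange points are the 1657 genes called at least 2-fold higher in skin, blue points the 581 called at least 2-fold higher in flesh, and the orange cloud reaches further from 0 than the blue one.

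The lean was present at every level of expression. Below 5 CPM, 611 genes were called at least 2-fold higher in skin and 207 in flesh. Between 100 and 1000 CPM the numbers were 86 and 28. Of the 90 genes at 1000 CPM or more, 77.8% passed the test, 11 were at least 2-fold higher in skin and 2 in flesh. The genes at least 2-fold higher in skin took 11.96% to 12.7% of all reads in the skin libraries and 2.92% to 3.50% in the flesh libraries. Those at least 2-fold higher in flesh took 2.95% to 3.34% of reads in seedless flesh, 2.51% to 2.56% in seeded flesh and 0.877% to 1.16% in skin. These shares describe genes chosen for their difference and carry no test.

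A gene could also be read in skin and not at all in flesh. There were 13 tested genes with no read in any of the 6 flesh libraries, each with 59 to 218 reads over the 6 skin libraries. Against a floor of 3 counts over the 6 flesh libraries together, which is 0.113 CPM, they were at least 21.9-fold to at least 80.9-fold higher in skin. They could pass the filter on low counts only through skin, so their calls carry no further weight. No tested gene had 0 reads in skin. With 3 or fewer reads in the tissue, 62 genes were near absent from flesh and 1 from skin. These genes too could pass the filter only through the other tissue. The fold limits cover counting error only.

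The separation by library was less common than the calls. For 3033 genes (22%), the lowest library of one tissue was above the highest of the other, and 3024 of these (21.9% of genes tested) passed the test. Of the 3024, 1880 were higher in skin and 1144 in flesh.

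By the rule for naming genes, which took the largest fold changes among called genes of at least 5 CPM without overlap, the top of the list in skin was VIT_14s0030g02310. It was at 22.5, 22.3 and 18.2 CPM in seedless skin and at 7.98, 13.9 and 9.74 CPM in seeded skin. Its flesh values were 0.280, 0 and 0 CPM in seedless berries and 0, 0.361 and 0 CPM in seeded ones. Every skin library was above every flesh library, and the seedless skin libraries were all above the seeded ones. The log2 fold change was 7.30 ± 0.43 (SE; adjusted p = 1.16e-14 by edgeR). It was 7.94 without seeded flesh replicate 2 and 8.11 with all libraries thinned to the same depth. It rests on 391 reads in skin and 2 in flesh, for a pooled ratio of 218 with a 95% counting interval of 59.8 to 1803. That interval is far wider than the SE implies, so with 2 flesh reads the SE understates the uncertainty.

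VIT_00s0294g00040 was nearly as large. Its skin values were 12.9, 12.8 and 13.8 CPM in seedless berries and 25.3, 15.01 and 16.8 CPM in seeded berries, and a single flesh library, seedless replicate 3, had a value above 0 (0.372 CPM). Its log2 fold change was 7.20 ± 0.44 (SE; adjusted p = 1.78e-14 by edgeR), from 365 reads in skin and 2 in flesh. Without seedless flesh replicate 3 it was 9.03, with no flesh read left, and at the same depth it was 8.14, so the fitted size depends on very few reads. The pooled ratio was 203, with a counting interval of 55.8 to 1684, again far wider than the SE implies. In contrast to VIT_14s0030g02310, the higher skin values were the seeded ones, and all 3 of them were above the seedless ones.

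Among genes higher in flesh, VIT_13s0067g02300 had the largest fold change by the same rule. Its flesh values were 60.8, 47.2 and 18.4 CPM in seedless berries and 13.4, 13.3 and 5.198 CPM in seeded berries. Its skin values were 1.76, 0.256 and 3.38 CPM in seedless berries and 0.469, 0.804 and 0.195 CPM in seeded berries. Both tissues were higher in seedless berries on average, and replicate 3 was the lowest flesh library of each treatment. Skin was lower by a log2 fold change of -4.50 ± 0.51 (SE; adjusted p = 1.42e-05 by edgeR), with similar values in seedless (-4.52) and seeded berries (-4.43).

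VIT_05s0020g03200 showed tighter replicates. Flesh was at 12.6, 12.2 and 10.97 CPM in seedless berries and at 19.5, 21.3 and 23.6 CPM in seeded ones. Skin was at 0.979, 0.768 and 2.08 CPM and at 1.88, 0.804 and 1.95 CPM. The seeded flesh libraries were all above the seedless ones, while the skin values overlapped between treatments. Skin was lower by a log2 fold change of -3.52 ± 0.26 (SE; adjusted p = 1.20e-12 by edgeR). Each of these 4 calls was kept when any single library was left out. All 4 genes could pass the filter on low counts only through the tissue where they were higher, so their adjusted p-values carry no further weight.

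**Figure D2:**
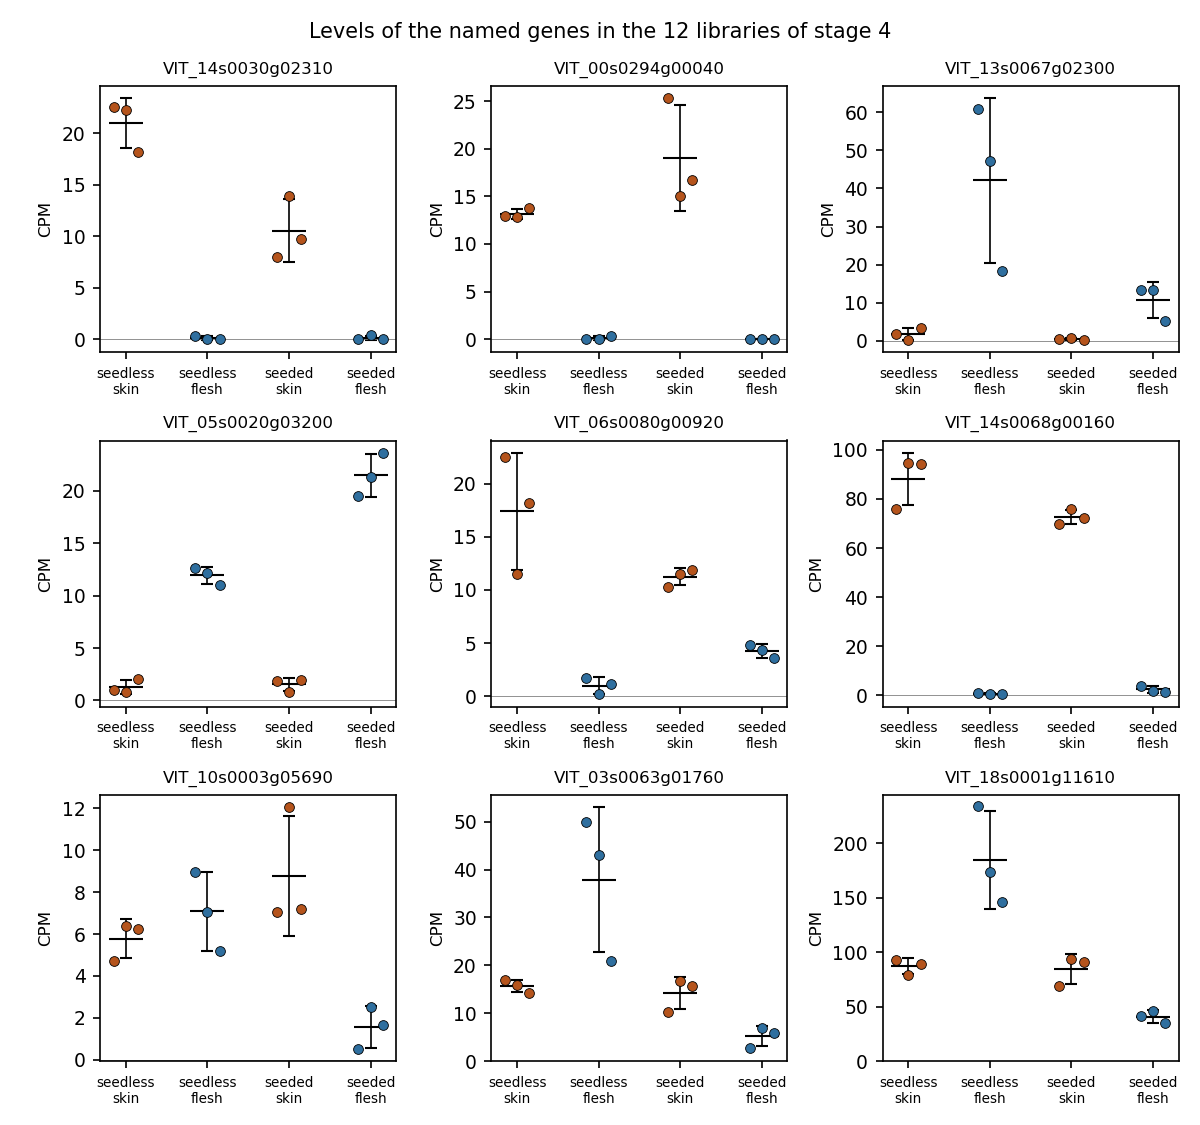
Points are the values of 9 genes, those named for the tissue difference and for its difference between treatments, in each of the 12 stage 4 libraries, in CPM on linear axes, with orange for skin and blue for flesh; horizontal bars are means of 3 libraries and error bars SD. For VIT_18s0001g11610 the skin means of 87.4 and 84.7 CPM lie close together while the flesh means of 185 and 40.7 CPM lie on either side of them.

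Most tissue differences were shared by seedless and seeded berries. Fitted apart, 4695 genes (34.1%) were called in seedless berries, 2671 of them (19.4% of genes tested) higher in skin, and 4136 genes (30%) in seeded berries, 2389 of them (17.3%) higher in skin. Called in both were 3229 genes, which is 68.8% of the seedless calls and 78.1% of the seeded calls. Of these, 2000 were higher in skin in both and 1223 were higher in flesh in both. The remaining 6 were called in opposite directions. Among genes called in both treatments, the median absolute log2 fold change was 1.13 in seedless berries and 1.08 in seeded berries.

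Genes called in a single treatment mostly leaned the same way in the other. The 1466 genes called in seedless berries alone had the same sign in seeded berries in 92.1% of cases, with a median log2 difference of 0.68 where called and 0.29 where not. The 907 genes called in seeded berries alone had the same sign in 90.6%, with medians of 0.63 and 0.26. Over all genes tested, 78.7% had the same sign. Only 4 of the 1466 and 2 of the 907 passed the test of the difference between treatments, so a call in one treatment alone does not show that the treatments differed. Across the 13783 genes, which are not independent replicates, the log2 differences of the 2 treatments had a correlation of 0.87. There were 2238 genes (16.2%) called at least 2-fold different between tissues. Of these, 3 had opposite signs in the 2 treatments and 1751 were called in both. The 2238 were chosen by the fit of both treatments together, which by itself favours the same sign and a call in both.

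The test of the tissue difference between treatments (seedless minus seeded) called 18 genes (0.131%), and 998 genes (7.24%) had an unadjusted p below 0.05. The difference was positive for 7 genes (0.0508%) and negative for 11 (0.0798%), a split that turned when seedless flesh replicate 1 or seedless skin replicate 3 was left out, with 54.2% and 60% positive. Its absolute size ranged from 0.89 to 2.89 on the log2 scale. The estimate of this difference was less precise than that of the tissue difference itself, with a median SE of 0.30 against 0.15. The 18 genes were of several kinds: 8 were called in the same direction in both treatments, 4 in opposite directions, 4 in seedless berries alone and 2 in seeded berries alone. Of the 8, 7 had the larger tissue difference in seedless berries. DESeq2 called 40 genes, 116 were called without a filter on low counts and 6 at equal depth. The count was 36 without seedless skin replicate 1, 30 without seeded skin replicate 1, 10 without either seeded skin replicate 2 or seedless flesh replicate 2, 8 without seedless skin replicate 2, 5 without seedless skin replicate 3 and 4 without seeded skin replicate 3.

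**Figure D3:**
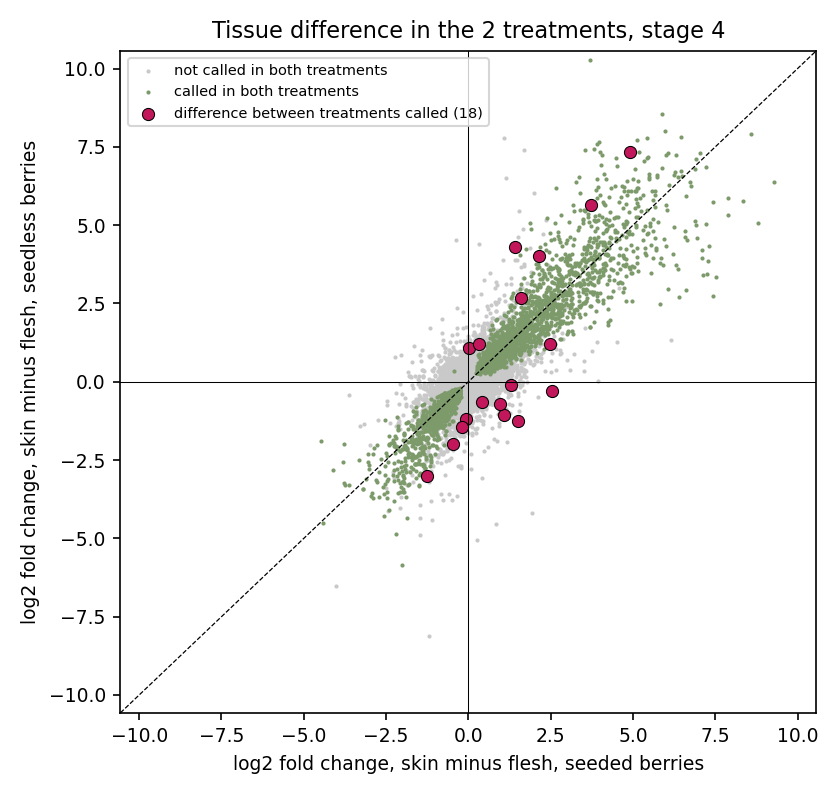
Each point is a gene, with its log2 fold change, skin minus flesh, in seeded berries on the horizontal axis and in seedless berries on the vertical axis; the dashed line marks equal values. Most points follow the line (correlation 0.87 across genes), and the 18 genes with a called difference between treatments are drawn large.

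In those 18 genes, the treatments stood further apart in flesh than in skin for 12 genes and further apart in skin for 6. The median absolute log2 difference between seedless and seeded berries was 1.32 in flesh and 0.58 in skin, which is given as a description because the genes were chosen from the same libraries. Seedless flesh had the higher fitted value for all 11 genes with a negative difference. It had the lower one for all 7 with a positive difference. The tested difference is the treatment difference in skin minus that in flesh, so choosing genes by it favours these signs. Taken alone, the treatment difference was called in flesh for 13 of the 18 genes and in skin for 10. These counts also follow in part from the choice of genes, and the shares over all genes tested are not given here.

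The clearest disagreement was VIT_18s0001g11610, singled out after its values were seen because it had the lowest adjusted p of the 18. Its skin values were 93.1, 79.4 and 89.6 CPM in seedless berries and 69.0, 94.1 and 91.2 CPM in seeded berries, and these overlapped. Its flesh values were 235, 173 and 147 CPM in seedless berries and 41.4, 46.1 and 34.7 CPM in seeded berries. Flesh was therefore above skin in every seedless library and below skin in every seeded one. The log2 fold change, skin minus flesh, was -1.07 ± 0.15 in seedless berries and 1.08 ± 0.16 in seeded berries (SE), both called. The difference between them was -2.15 ± 0.22 (SE; adjusted p = 1.73e-05 by edgeR). With seedless or seeded as a block, the tissue difference over both treatments was -0.10, with adjusted p = 0.865 by edgeR. The call held in each of the fits with a library left out.

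VIT_03s0063g01760 had the same shape. Its flesh values were 49.9, 43.0 and 20.8 CPM in seedless berries and 2.79, 6.85 and 5.91 CPM in seeded berries. Its skin values were 16.8, 15.9 and 14.3 CPM in seedless berries and 10.3, 16.6 and 15.6 CPM in seeded berries, and these overlapped. Its log2 fold changes were -1.26 ± 0.27 in seedless berries and 1.52 ± 0.35 in seeded berries (SE), again with flesh above skin in one and below it in the other. The difference was -2.78 ± 0.44 (SE; adjusted p = 0.00912 by edgeR). The adjusted p by edgeR rose to 0.0576 without seeded skin replicate 3 and to 0.0574 without seedless skin replicate 3.

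VIT_10s0003g05690 differed between tissues in seeded berries. Skin was at 7.04, 12.1 and 7.21 CPM there and flesh at 0.507, 2.52 and 1.65 CPM. In seedless berries the tissues overlapped, with skin at 4.70, 6.40 and 6.23 CPM and flesh at 8.97, 7.06 and 5.21 CPM. The log2 fold changes were 2.55 ± 0.46 in seeded berries and -0.28 ± 0.36 in seedless berries (SE). Their difference, -2.84 ± 0.59 (SE; adjusted p = 0.0377 by edgeR), lost its call in 9 of the 12 fits with a library left out. Only those without seeded flesh replicate 2, seeded skin replicate 1 or seedless flesh replicate 3 kept it, and the highest adjusted p was 0.160, without seeded skin replicate 2.

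In the other direction, VIT_06s0080g00920 was higher in skin in both treatments and more so in seedless berries. Skin was at 22.5, 11.5 and 18.2 CPM in seedless berries and at 10.3, 11.5 and 11.9 CPM in seeded berries. Flesh was at 1.68, 0.150 and 1.12 CPM in seedless berries and at 4.82, 4.33 and 3.54 CPM in seeded berries. The skin values overlapped between treatments and the flesh values did not. The log2 fold changes were 4.31 ± 0.42 and 1.42 ± 0.36 (SE), and their difference was 2.89 ± 0.59 (SE; adjusted p = 0.0355 by edgeR). It lost its call without seeded flesh replicates 1 or 3, seeded skin replicates 2 or 3, seedless flesh replicate 2, or seedless skin replicates 1 or 3, with a highest adjusted p by edgeR of 0.189 without seedless flesh replicate 2, where the difference was 2.24.

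VIT_14s0068g00160 was a strongly skin-higher gene in both treatments. Skin was at 76.0, 94.5 and 94.3 CPM in seedless berries and at 69.9, 75.9 and 72.1 CPM in seeded berries. Flesh was at 0.841, 0.451 and 0.372 CPM in seedless berries and at 3.81, 1.80 and 1.42 CPM in seeded berries. The tissues were far apart in each treatment, and the treatments differed in flesh, where the 6 libraries held 34 reads in all. The log2 fold changes were 7.34 ± 0.28 and 4.92 ± 0.24 (SE), and their difference was 2.42 ± 0.51 (SE; adjusted p = 0.0495 by edgeR). With so few flesh reads these SE may be too small. That call was lost without seeded flesh replicate 1, seeded skin replicates 2 or 3, seedless flesh replicates 2 or 3, or seedless skin replicates 2 or 3. Its highest adjusted p by edgeR in those fits was 0.338, without seeded flesh replicate 1, and with all libraries thinned to the same depth it was 0.689, with a difference of 1.36.

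Genes with large differences were sometimes neighbours in the identifier order. Runs of tested genes that follow each other and share an identifier stem were counted after the values were seen. They are a description with no test, and near-identical neighbours may share reads. Their members were chosen for the tissue difference in these libraries, so calls in each treatment and lack of overlap follow in part from that choice. Over all genes tested, 34.1% were called in seedless berries, 30% were called in seeded berries and 22% were without overlap. Of the 1657 genes at least 2-fold higher in skin, 590 lay in 248 runs of at least 2 such genes, and 52 lay in 9 runs of at least 5. Of the 580 genes at least 2-fold higher in flesh whose identifiers carry a position, 93 lay in 38 runs of at least 2, and 12 formed the only run of at least 5.

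The longest run in skin was on stem 05s0077, with 8 genes on chromosome 5 whose log2 fold changes were between 4.03 and 5.75. The summed level of the 8 was 2206 ± 371 CPM in seedless skin and 27.8 ± 12.1 CPM in seedless flesh (SD, n = 3). In seeded berries it was 2294 ± 187 CPM in skin and 67.9 ± 34.7 CPM in flesh (SD, n = 3). Skin and flesh did not overlap for any of the 8 genes. Apart from VIT_05s0077g01580, their mean flesh levels were 0.089 to 1.67 CPM. Genes that low in flesh could pass the filter on low counts mainly through skin, which by itself favours lack of overlap. Most of the sum came from VIT_05s0077g01580, at a mean of 2092 CPM in skin and 42.7 CPM in flesh. All 8 had the larger fold change in seedless berries, but none had a called difference between treatments, the lowest adjusted p by edgeR being 0.683.

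The other runs of at least 6 genes in skin were on 3 stems. On stem 06s0004, 7 genes summed to 601 ± 32.3 CPM in seedless skin and 22.3 ± 8.14 CPM in seedless flesh, and to 564 ± 70.5 CPM and 31.8 ± 7.67 CPM in seeded berries (SD, n = 3). On stem 19s0014, 6 genes summed to 141 ± 12.6 CPM in seedless skin and 33.6 ± 6.36 CPM in seedless flesh, and to 136 ± 5.90 CPM and 40.9 ± 1.46 CPM in seeded berries (SD, n = 3). The sums of both runs differed little between treatments beside the gap between tissues. On stem 16s0100, 6 genes summed to 83.3 ± 21.1 CPM in seedless skin and 42.6 ± 7.25 CPM in seeded skin, against 4.96 ± 1.09 CPM and 4.75 ± 2.04 CPM in flesh (SD, n = 3). The seedless skin mean of that run was above the seeded one while the flesh means were alike, and no gene of it had a called difference between treatments, the lowest adjusted p by edgeR being 0.322.

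The run in flesh was longer than any in skin, with 12 genes on stem 12s0057 of chromosome 12. Their log2 fold changes lay between -2.76 and -1.26. Summed over the 12, seedless berries had 1558 ± 382 CPM in flesh and 407 ± 123.3 CPM in skin, and seeded berries had 330 ± 39.5 CPM in flesh and 125 ± 3.43 CPM in skin (SD, n = 3). Both tissues were several times higher in seedless berries, and the seedless skin libraries, at 510, 441 and 271 CPM, lay around the seeded flesh mean. With the treatments pooled, skin and flesh libraries were without overlap for 1 of the 12 genes. All 12 were called in seedless berries and 8 in seeded berries, and none had a called difference between treatments, the lowest adjusted p by edgeR being 0.358. All 12 were also called higher in flesh at stage 3, where 40.1% of all genes tested were called in either direction. Of the genes at least 2-fold different at stage 4 in the fit of 36 libraries, 85.6% were called in the same direction at stage 3. The skin runs were alike: 8 of 8 genes on stem 05s0077, 6 of 7 on 06s0004, 6 of 6 on 16s0100 and 6 of 6 on 19s0014 were called higher in skin there.

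**Figure D4:**
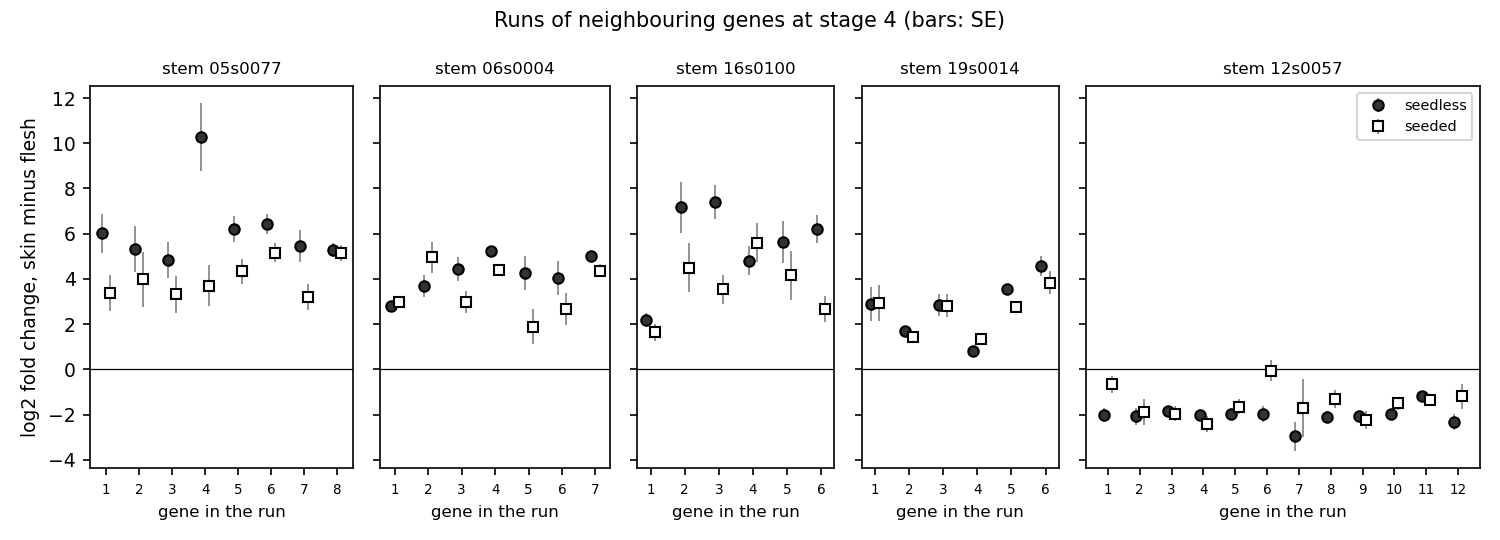
Each panel is a run of neighbouring genes in identifier order, with the log2 fold change, skin minus flesh, on the vertical axis for seedless (filled circles) and seeded berries (open squares) and SE as error bars. The 4 runs on the left lie above 0 and the 12 genes of stem 12s0057 below it, with a seeded value close to 0, at -0.06. The value of 10.3 on stem 05s0077 is for a gene with 0 reads in seedless flesh, so it depends on the prior count and is no bound.

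By chromosome, the share of tested genes at least 2-fold higher in skin ran from 9.38% on chromosome 4 to 14.9% on chromosome 6, around the 12% of all genes. The share at least 2-fold higher in flesh ran from 2.24% on chromosome 7 to 5.85% on chromosome 2, around 4.22%.

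The same tissues were sampled at stage 3, which shows how much of the stage 4 difference was already present. A fit of all 36 libraries tested 14841 genes and called 6126 (41.3%) at stage 4 and 5946 (40.1%) at stage 3. Of these, 4390 were called in the same direction at both stages, 2635 higher in skin and 1755 higher in flesh. They made up 71.7% of the stage 4 calls and 73.8% of the stage 3 calls. Of the 2528 genes (17%) called at least 2-fold different at stage 4, 85.6% were called in the same direction at stage 3. Opposite directions were called for 49 genes. Across the 14841 genes, which are not independent replicates, the log2 differences of the 2 stages had a correlation of 0.87.

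The change of the tissue difference between the stages (stage 4 minus stage 3) was called for 437 genes (2.94%). It was positive, towards skin, for 315 genes (2.12%) and negative for 122 (0.822%). The difference became larger in size for 257 genes, of which 221 were higher in skin at stage 4 and 36 higher in flesh. It became smaller for 180 genes, of which 86 were higher in skin at stage 3 and 94 higher in flesh. Among the 2528 genes called at least 2-fold different at stage 4, 194 (7.67%) had a called change.

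**Figure D5:**
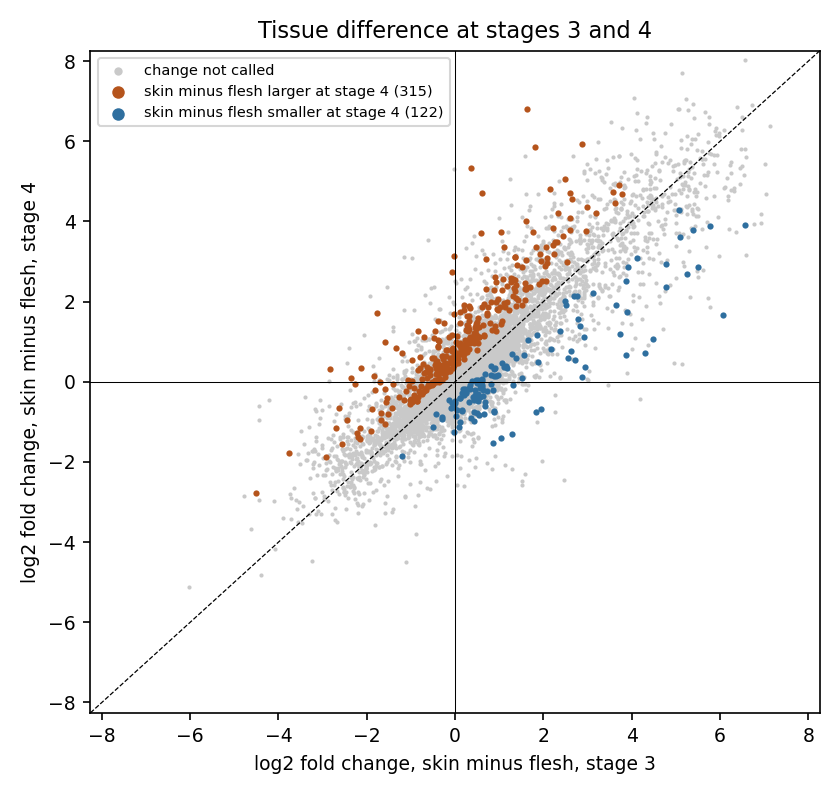
Each point is a gene of the 36-library fit, with its log2 fold change, skin minus flesh, at stage 3 on the horizontal axis and at stage 4 on the vertical axis; the dashed line marks equal values. Orange points are the 315 genes whose difference moved towards skin and blue points the 122 whose difference moved towards flesh.

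VIT_17s0000g09800 became a skin-higher gene between the stages. In skin its lowest, median and highest values were 27.5, 54.5 and 83.3 CPM at stage 3 and 214, 258 and 345 CPM at stage 4, with no overlap. In flesh they were 19.4, 58.8 and 127 CPM at stage 3 and 14.5, 31.6 and 49.6 CPM at stage 4, with overlap. The log2 fold change, skin minus flesh, was -0.02 ± 0.19 at stage 3 and 3.13 ± 0.19 at stage 4 (SE). The change of 3.16 ± 0.27 was called (SE; adjusted p = 4.19e-08 by edgeR).

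VIT_02s0012g02810 was higher in skin at both stages and further apart at stage 4. Its lowest, median and highest values in skin were 3.62, 6.49 and 12.5 CPM at stage 3 and 10.2, 15.7 and 29.3 CPM at stage 4. In flesh they were 0.653, 0.742 and 1.86 CPM at stage 3 and 0, 0.198 and 1.04 CPM at stage 4. Each tissue overlapped between the stages, skin with higher and flesh with lower medians at stage 4. The change was 3.07 ± 0.69 (SE; adjusted p = 0.0039 by edgeR), and 3.88 without seedless flesh replicate 1 of stage 4, the flesh library with the highest value at that stage. Flesh was near the floor, with 7 reads over its 6 libraries of stage 4. The size of the change thus depends on few reads. At these stages the gene could pass the filter on low counts only through skin, so its adjusted p carries no further weight.

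VIT_08s0058g01210 moved the other way. Its lowest, median and highest values in skin were 329, 408 and 528 CPM at stage 3 and 136, 167 and 259 CPM at stage 4. In flesh they were 11.5, 17.7 and 29.9 CPM at stage 3 and 50.5, 89.9 and 112 CPM at stage 4. Skin was thus lower and flesh higher at the later stage. Neither tissue overlapped between stages, and skin was above flesh at both. Its log2 fold change was 4.49 ± 0.23 at stage 3 and 1.06 ± 0.19 at stage 4 (SE). The change was -3.42 ± 0.29 (SE; adjusted p = 5.02e-08 by edgeR).

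VIT_12s0034g01140 stayed far higher in skin while the gap narrowed. In skin its lowest, median and highest values were 189, 290 and 429 CPM at stage 3 and 45.7, 62.9 and 99.7 CPM at stage 4. In flesh they were 1.80, 2.52 and 4.59 CPM at stage 3 and 1.29, 3.50 and 8.03 CPM at stage 4, with overlap. Its skin values did not overlap between the stages. The change was -2.67 ± 0.50 (SE; adjusted p = 0.00199 by edgeR). Each of these 4 changes kept its call when any single library was left out. The values of these 4 genes are scaled over all 36 libraries, which is why they differ a little from values scaled over 12.

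Both named genes that pointed in opposite directions in the treatments at stage 4 pointed to flesh at stage 3. VIT_18s0001g11610 had at stage 3 a log2 fold change of -1.69 ± 0.21 (SE; adjusted p = 3.06e-07 by edgeR). Its lowest, median and highest values at stage 3 were 16.8, 34.5 and 44.7 CPM in skin and 63.7, 116 and 142 CPM in flesh, with no overlap. VIT_03s0063g01760 was at -1.83 ± 0.18 (SE; adjusted p = 1.63e-11 by edgeR). Its stage 3 values were 7.97, 14.99 and 16.7 CPM in skin and 33.2, 41.3 and 81.6 CPM in flesh, with no overlap.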

How the data were processed

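Libraries were made by Lasy-seq, which adds the sample index at reverse transcription, per the labels' protocols. The submitters' processing notes name fastp 0.20.0, HISAT2 2.2.1 and featureCounts. The sources used here do not give the genome build, annotation, strand setting or handling of multiply mapped reads, so overlapping genes and near-identical copies are uncertain. The authors deposited raw read counts per gene, with 30661 rows for 36 libraries; 0 sample columns fell outside the labels. Rows with ENSRNA identifiers held 0.123% to 0.688% of reads.

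Counts were tested with the quasi-likelihood test of edgeR 4.0.16 (R 4.3.3) after TMM scaling and a filter on low counts (minimum count 10 over the 4 groups). The tissue comparison had seedless or seeded as a block; the treatments and their difference came from a fit of group means, and the stage change from a fit of all 36 libraries. P-values were adjusted by Benjamini-Hochberg over all genes tested, with a threshold of 0.05. SE is the absolute log2 fold change divided by the square root of F, and it can be too small where a tissue has few reads. CPM values are TMM-scaled. The scripts were tested on simulated data. Replicate libraries were compared before averaging and differed by more than sampling noise. Replicate numbers were checked for pairing by the correlation of deviations from group means. Of 6 pairs, 3 were over 0.1, and all 6 skin libraries correlated best with the flesh library of their own number. The labels name no shared source, so the numbers were not taken as pairs in the main fits. A replicate block was run as an alternative and gave higher counts, listed in the last section.

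Named genes are the largest fold changes in each direction among called genes of at least 5 CPM, without overlap for the tissue comparison; 2 in each direction are printed. No reference paired identifiers with products, so the lists of named products and cell type markers drawn up for this comparison could not be applied, and no sequences are shown. The members and lists were chosen with earlier results of these data known. The alternatives were other scalings, DESeq2 1.42.0, other filters, equal depth, a replicate block, all 36 libraries, no ENSRNA rows and leaving out each library.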

Additional observations from a re-analysis of the deposited data

Results flagged for a closer look

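The tissue difference of 5 named genes was called different between seedless and seeded berries by the test of that difference itself. Among these 5, only VIT_18s0001g11610 kept its call in each of the fits with a library left out. The next positive genes by the naming rule, not printed here, also kept their calls in those fits. The highest adjusted p by edgeR was 0.0326 for each of them, but at equal depth that of the larger was 0.363. The seedless minus seeded difference of log2 fold changes was 2.89 for VIT_06s0080g00920, 2.42 for VIT_14s0068g00160, -2.84 for VIT_10s0003g05690, -2.78 for VIT_03s0063g01760 and -2.15 for VIT_18s0001g11610. The tissue difference of 4 named genes changed between stages 3 and 4 by the same kind of test. The stage 4 minus stage 3 difference was 3.16 for VIT_17s0000g09800, 3.07 for VIT_02s0012g02810, -3.42 for VIT_08s0058g01210 and -2.67 for VIT_12s0034g01140.

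A library stood apart from the other 5 of its tissue in 3 of the 40 sets of 6 libraries examined; chance gives about 1 in 20. For VIT_00s0294g00040 these were seeded skin replicate 1, at 25.3 CPM, and seedless flesh replicate 3, at 0.372 CPM, the only flesh library with a read. For VIT_10s0003g05690 it was seeded skin replicate 2, at 12.1 CPM.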

How the results depend on the processing

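No gene that met the naming rule reversed under any alternative run; of 567 values for those genes, 503 stayed on their side of the threshold and 64 lost their call. The count of the tissue difference ranged from 5808 to 6161 genes with a library left out and from 5199 (5 CPM in 6 libraries) to 6796 (no filter on low counts) under the other alternatives. Requiring 5 CPM in 6 libraries left 1079 genes at least 2-fold higher in skin and 357 in flesh, with fewer genes tested, and kept 5 of 8, 4 of 7 and 3 of 6 genes of the runs on stems 05s0077, 06s0004 and 16s0100. For the difference between treatments, 18 genes became 40 (14 positive and 26 negative) with DESeq2, 116 (40 and 76) without a filter on low counts and 6 (1 and 5) at equal depth. With a library left out it ranged from 4 to 36, from 2 to 13 positive and from 2 to 31 negative. For the stage change, 185 negative genes were called without a filter. The replicate block gave 135 genes for the treatments (45 and 90), 16 genes called in opposite directions and 1000 for the stage change (746 and 254); 3 of 6 pairs of the same number correlated above 0.1, and all 6 skin libraries correlated best with the flesh library of their own number, a hint from the data and not from the design. The cause of these shifts was not tested. At equal depth the difference between treatments was no longer called for VIT_06s0080g00920 (adjusted p = 0.215 by edgeR), VIT_14s0068g00160 (0.689) or VIT_10s0003g05690 (0.0565), of the 5 named genes. The fit of all 36 libraries lost the call of VIT_06s0080g00920 (adjusted p = 0.0639 by edgeR) and VIT_14s0068g00160 (0.0636). Requiring 5 CPM in 6 libraries also lost that of VIT_14s0068g00160 (adjusted p = 0.0534 by edgeR).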
